A study of Mus musculus with 6 samples.

Results

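A set of genes that copy DNA and carry cells into S phase was almost uniformly higher in T-cell acute lymphoblastic leukemia (T-ALL). The comparison was of 3 sorted fractions of spleen from mice with T-ALL and the same fractions from normal mice. Of 43 other replication genes 25 were called higher, and of 21 other G1/S regulators 8, against 8.2% of all tested genes. The set was chosen with earlier results of these data known. The set holds 43 mouse genes, chosen by symbol from the known replication machinery and its G1/S regulators and found through their Entrez identifiers, out of 16058 identifiers in the 6 libraries. Every member was listed in every library, and the lowest value of any of them was 1.08 FPKM (Pole in normal Ly6chiF4/80lo), so none entered the tests through 1 state alone. Of the 43 members 39 rose in T-ALL, 0 fell, and 4 did not pass: Slbp, Pold1, Tyms and E2f1. At an unadjusted p under 0.05, 40 members were higher, beside 4042 of 11616 tested genes under that line in either direction.

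The T-ALL libraries came from spleens of C57BL/6 mice taken at day 15, per the labels. These mice were transplanted at 6 to 8 weeks of age with 1000000 GFP-positive leukemia cells without irradiation. The normal libraries came from day 0, with 0 transplanted cells and the same age of 6 to 8 weeks, also per the labels. In each state 3 macrophage gates were sorted, named by surface Ly6C and F4/80: Ly6chiF4/80lo, Ly6cloF4/80lo and Ly6cloF4/80hi. Each gate has 1 library per state, and the 3 gates are the only repeats of the comparison of T-ALL with normal. The labels do not say whether the gates were sorted from separate mice or how many mice were pooled. The p-values rest on how the difference between T-ALL and normal varied from gate to gate. They perhaps do not cover the spread among mice. Day and disease state cannot be told apart.

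Fragment depth, recovered from the spacing of low FPKM values, was about 6570000 to 8490000 fragments in T-ALL and 7310000 to 7790000 in normal libraries. Values are FPKM, which scale fragments by transcript length and library depth. At the median annotated coding length, the lowest library of a member held about 12 to 1065 fragments, and 5 members (Pole, Gins1, Dscc1, Orc1 and Tipin) held under 50 fragments in their lowest library. In both states Ly6c2 was highest in Ly6chiF4/80lo and Adgre1, which encodes F4/80, in Ly6cloF4/80hi. Ly6c2 was at 1405, 21.4 and 19.8 FPKM in T-ALL and at 482, 19.9 and 11.8 FPKM in normal, in the order Ly6chiF4/80lo, Ly6cloF4/80lo, Ly6cloF4/80hi that is kept below. Adgre1 was at 47.3, 74.7 and 234 FPKM in T-ALL and at 86.6, 86.7 and 529 FPKM in normal. Transcripts of other cells were present in every library: the 5 B cell markers together reached 1112 to 2110 FPKM in T-ALL and 1261 to 3051 FPKM in normal libraries. In bulk RNA of this kind, fewer cells of a type and less RNA per cell cannot be told apart.

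Replication starts in G1, when the origin recognition complex, Cdc6 and Cdt1 load rings of the MCM2-7 helicase onto DNA. In S phase Mcm10, Cdc45 and the GINS complex switch the helicase on, primase and the polymerases copy both strands, and the clamp Pcna holds the polymerases in place. Cyclin E and E2F factors drive the passage from G1 into S, and many replication genes are known E2F targets. Mature tissue macrophages mostly rest outside the cycle, while their precursors, erythroblasts and leukemia cells divide.

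Because E2F factors are the known shared regulators of these genes, the promoters of the members were searched for E2F letters, with CCAAT and the CHR element of mitotic genes beside them. RefSeq promoter windows (GRCm38.p6, 250 bases before and 50 after the start site) were matched for 35 of the 43 members, in 40 windows. Prim2, Dscc1, Tipin, Ccne2, Pole, Mcm4, Gins1 and Gins2 had no entry. The E2F letters searched, on both strands, were TTTCCCGC, TTTCGCGC, TTTGCCGC and TTTGGCGC. The last 200 bases before the start site are shown for 4 members with matches, in capitals, because they cover licensing factors and helicase subunits. Rrm2, the member with the largest change, held no E2F letters in its window and is shown with its CCAAT letters in capitals.
Cdc6 (chr11:98907951-98908150, plus strand): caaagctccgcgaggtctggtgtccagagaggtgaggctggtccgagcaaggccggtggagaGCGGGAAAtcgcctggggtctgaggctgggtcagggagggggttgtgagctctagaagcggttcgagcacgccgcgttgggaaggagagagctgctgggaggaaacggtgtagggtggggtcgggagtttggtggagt
Orc1 (chr4:108579254-108579453, plus strand): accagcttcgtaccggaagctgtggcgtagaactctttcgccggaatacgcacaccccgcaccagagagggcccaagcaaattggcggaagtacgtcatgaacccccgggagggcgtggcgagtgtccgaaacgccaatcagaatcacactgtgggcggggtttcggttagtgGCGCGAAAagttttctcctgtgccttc
Mcm5 (chr8:75109309-75109508, plus strand): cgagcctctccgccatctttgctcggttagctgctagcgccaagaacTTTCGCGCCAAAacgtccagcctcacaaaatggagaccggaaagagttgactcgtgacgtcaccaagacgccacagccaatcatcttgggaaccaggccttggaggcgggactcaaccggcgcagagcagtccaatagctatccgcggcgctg
Mcm6 (chr1:128359706-128359905, minus strand): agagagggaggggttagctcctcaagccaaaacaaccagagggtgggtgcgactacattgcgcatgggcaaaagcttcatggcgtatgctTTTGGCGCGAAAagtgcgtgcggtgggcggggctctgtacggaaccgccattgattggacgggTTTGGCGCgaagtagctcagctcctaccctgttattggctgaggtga
Rrm2 (chr12:24708054-24708253, plus strand): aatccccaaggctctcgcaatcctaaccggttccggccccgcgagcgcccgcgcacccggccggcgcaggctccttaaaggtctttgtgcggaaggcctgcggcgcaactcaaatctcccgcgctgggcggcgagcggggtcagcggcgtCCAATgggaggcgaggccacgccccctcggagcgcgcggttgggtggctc

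In Mcm6 the E2F letters occur as a pair of overlapping matches on opposite strands and again closer to the start site, and in Mcm5 as 1 overlapping pair. In all, 13 of 35 members (37.1%) held at least 1 E2F match, against 457 of 9428 tested genes with a window (4.8%). Of all 27025 genes with a window 2.6% did, and by window the shares were 32.5% of the members' 40 and 2.3% of all 32851. The 13 members were Orc1, Cdc6, Cdt1, Mcm3, Mcm5, Mcm6, Mcm7, Pola1, Pold1, Rfc3, Lig1, Uhrf1 and Hells. CCAAT stood in 19 of 35 members (54.3%), against 43.7% of tested genes and 41.1% of all genes with a window. The CHR letters TTTGAA stood in 3 of 35 members (8.6%), namely Mcm2, Cdc45 and Fen1. They stood in 15.0% of tested genes and 20.2% of all genes with a window. The 20 mitotic and G2/M genes had the other pattern: of 16 with a window, 1 held E2F letters, 14 held CCAAT and 11 held TTTGAA. Within the replication set the median fitted log2 change, T-ALL minus normal, was 1.62 in members with a match (12 of 13 called higher) and 1.62 in members without one (19 of 22). The windows were not matched for base composition, and a match describes letters only.

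T-ALL was compared with normal by limma on log2(FPKM + 1), with gate as a block, over 11616 genes. An adjusted p under 0.05 counts as passing, and every log2 change is T-ALL minus normal on the log2(FPKM + 1) scale, which understates changes of low genes. The 39 members that rose (90.7% of the set) compare with 8.2% of all tested genes called higher, and the 0 that fell with 3.94% called lower. The median log2 of the members was 1.52, with a range of -0.20 to 2.495, against -0.03 for all tested genes. In 37 of 43 members the lowest T-ALL library stood above the highest normal library, which held for 13.8% of all tested genes. The 6 members whose libraries overlapped between states were Pola1, Ung, Rfc3, Pold1, Tyms and E2f1. Of the members, 12 overlap another protein-coding gene listed in the files (Orc1, Mcm7, Cdc45, Gins2, Rfc4, Fen1, Lig1, Ung, Tk1, Chaf1a, Ccne2 and E2f1), and whether counting used strand is not given in the sources used here, so their values may hold reads of the neighbour. Without gate as a block 11 members passed, and without normal Ly6cloF4/80hi 25 passed.

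**Figure D1:**
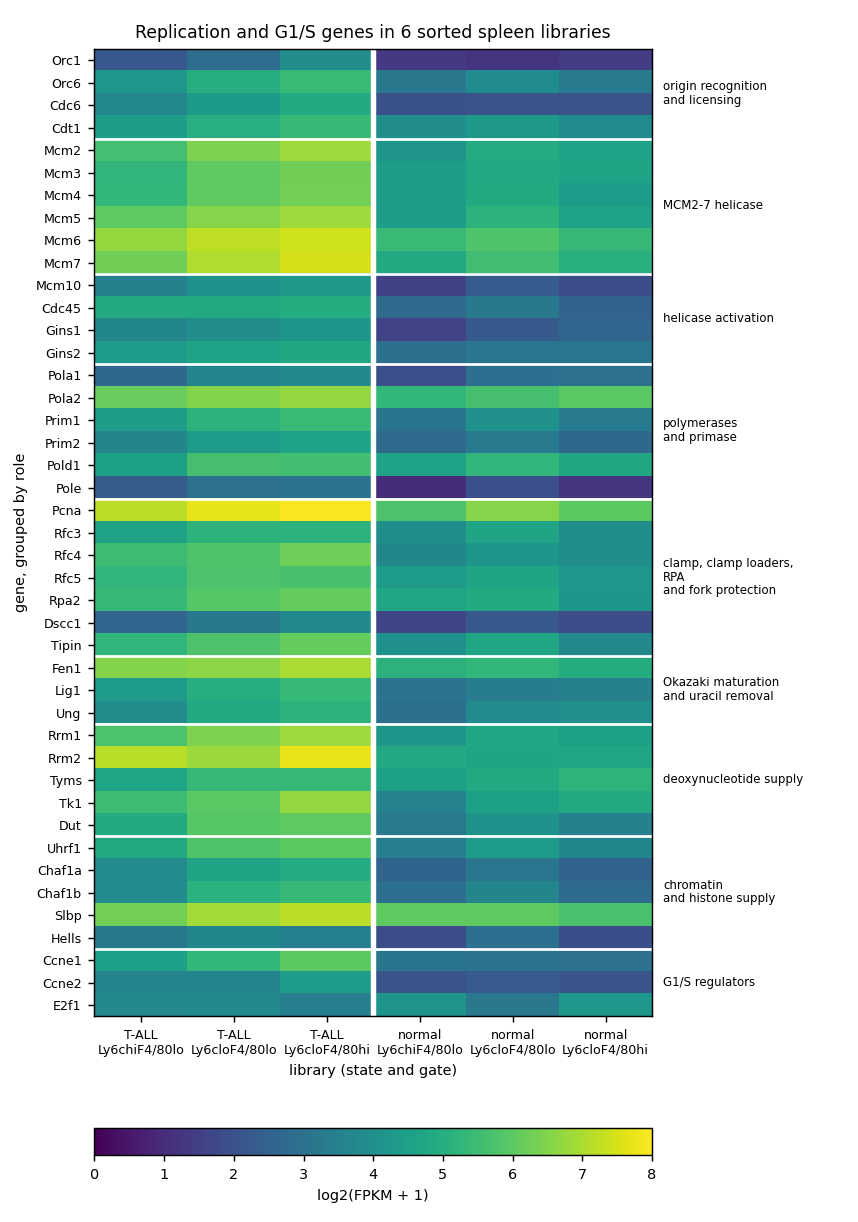
Level of each of the 43 genes, as log2(FPKM + 1) by colour, in the 3 T-ALL and 3 normal libraries, with genes grouped by role. The T-ALL columns are brighter for nearly all genes, and Pcna, at 239.7 FPKM in T-ALL Ly6cloF4/80hi, has the highest value; Tyms shows little contrast, and E2f1 is lower in T-ALL in 2 gates.

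Among the factors that license origins, all 4 rose. Cdc6, the ATPase that recruits the helicase to origins, was at 11.99, 19.7 and 28.5 FPKM in T-ALL, against 2.93, 3.26 and 3.29 FPKM in normal. Its normal values lay within a narrow band and every T-ALL value was more than 4-fold above its gate's normal value (log2 2.26, SE 0.22, adjusted p = 0.00832). Orc1, the largest subunit of the origin recognition complex, was at 3.61, 6.20 and 14.2 FPKM in T-ALL, against 1.51, 1.30 and 1.74 FPKM in normal. The T-ALL values climbed across the gates while the normal values did not, and the groups did not overlap (log2 1.67, SE 0.31, adjusted p = 0.0265). Orc1 passed in 6 of 12 alternative settings. Orc6, another subunit of that complex, was at 18.1, 30.9 and 41.5 FPKM in T-ALL, against 8.29, 14.0 and 9.09 FPKM in normal. Each T-ALL value exceeded all 3 normal values (log2 1.40, SE 0.23, adjusted p = 0.0214). Cdt1, which loads the helicase together with Cdc6, was at 21.4, 31.1 and 40.3 FPKM in T-ALL, against 14.3, 19.1 and 13.5 FPKM in normal. This was the smallest change of the class, and the lowest T-ALL value was close to the highest normal value (log2 0.91, SE 0.21, adjusted p = 0.0447). Cdt1 passed in 3 of 13 alternative settings.

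All 6 subunits of the MCM2-7 helicase rose, with log2 changes of 1.21 to 1.77. Mcm7 was at 75.8, 132 and 178 FPKM in T-ALL, against 28.2, 46.0 and 32.7 FPKM in normal. Mcm2 was at 47.9, 86.2 and 112 FPKM in T-ALL, against 16.8, 29.5 and 23.5 FPKM in normal. Neither gene's groups overlapped, and both had their highest T-ALL value in Ly6cloF4/80hi and their highest normal value in Ly6cloF4/80lo (for Mcm7 log2 1.77, SE 0.22, adjusted p = 0.0116, for Mcm2 log2 1.73, SE 0.19, adjusted p = 0.00898). Mcm4 was at 38.3, 65.7 and 77.6 FPKM in T-ALL, against 20.9, 28.4 and 20.4 FPKM in normal. Mcm3 was at 37.8, 64.9 and 75.3 FPKM in T-ALL, against 21.0, 27.3 and 24.3 FPKM in normal. These smallest changes of the helicase still left the groups apart (for Mcm4 log2 1.30, SE 0.21, adjusted p = 0.0214, for Mcm3 log2 1.21, SE 0.18, adjusted p = 0.0163). Mcm5 and Mcm6 changed by 1.70 and 1.62. The 6 subunits form 1 ring, and their levels per length stayed within a narrow ratio: the highest subunit was 2.77, 2.31 and 2.36 times the lowest in T-ALL, and 2.48, 1.98 and 1.92 times the lowest in normal. Mcm6 was the highest subunit in each library except T-ALL Ly6cloF4/80hi, where Mcm7 was.

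The factors that switch the helicase on all rose, by at least a log2 of 1.52. Mcm10, which helps the loaded helicase start to unwind DNA, was at 10.4, 16.3 and 19.1 FPKM in T-ALL, against 2, 4 and 2.70 FPKM in normal. The groups were far apart (log2 2.06, SE 0.18, adjusted p = 0.00832). Cdc45, a component of the active helicase, was at 28.0, 28.3 and 29.8 FPKM in T-ALL, against 5.85, 8.46 and 4.68 FPKM in normal. Its T-ALL level was nearly the same in the 3 gates and above every normal value (log2 2.05, SE 0.19, adjusted p = 0.00832). Gins1 was at 11.7, 14.5 and 18.02 FPKM in T-ALL, against 2.12, 3.77 and 5.06 FPKM in normal. Gins2 was at 19.9, 23.6 and 26.4 FPKM in T-ALL, against 6.74, 7.82 and 7.85 FPKM in normal. These GINS subunits, which bind the helicase with Cdc45, rose by a log2 of 1.79 (SE 0.16) and 1.52 (SE 0.14), each with an adjusted p = 0.00832, and Gins1 is 1 of 5 members whose largest change was not in Ly6cloF4/80hi.

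Of the 6 polymerase and primase genes 5 rose. Prim1, the catalytic subunit of primase, was at 20.9, 34.8 and 40.6 FPKM in T-ALL, against 7.63, 15.6 and 8.93 FPKM in normal. The T-ALL values lay above all normal values (log2 1.51, SE 0.21, adjusted p = 0.0141). Pole, the catalytic subunit of the leading-strand polymerase, held the lowest single value of the set and was at 4.09, 6.95 and 7.23 FPKM in T-ALL, against 1.08, 2.86 and 1.33 FPKM in normal. Its groups did not overlap (log2 1.39, SE 0.21, adjusted p = 0.0173). Pola1, the catalytic subunit of polymerase alpha, was at 5.41, 11.1 and 12.5 FPKM in T-ALL, against 2.90, 6.51 and 6.84 FPKM in normal. T-ALL Ly6chiF4/80lo lay below 2 of the normal libraries, while the other T-ALL values lay above all normal values (log2 0.73, SE 0.15, adjusted p = 0.032). Pola1 passed in 5 of 13 alternative settings. Pold1, the catalytic subunit of the lagging-strand polymerase, was at 22.4, 49.1 and 47.0 FPKM in T-ALL, against 23.2, 37.6 and 26.4 FPKM in normal. It did not pass (log2 0.38, SE 0.19, adjusted p = 0.204). Prim2 and Pola2 changed by 1.32 and 0.82. Per length, Pola2 was 12.9, 8.18 and 8.21 times as abundant as its partner Pola1 in T-ALL and 13.3, 7.57 and 8.93 times in normal.

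All 7 genes of the sliding clamp, its loaders, the single-strand binding protein and fork protection rose. Rfc4, a clamp loader subunit, was at 43.5, 54.7 and 75.1 FPKM in T-ALL, against 11.8, 17.9 and 14.9 FPKM in normal. It had the largest change of the class (log2 1.87, SE 0.17, adjusted p = 0.00832). Tipin, which with Timeless protects stalled forks, was at 37.4, 52.9 and 67.6 FPKM in T-ALL, against 15.1, 25.1 and 13.3 FPKM in normal. Every T-ALL value was above every normal value (log2 1.52, SE 0.25, adjusted p = 0.0212). Rfc5, another clamp loader subunit, was at 37.7, 53.5 and 49.7 FPKM in T-ALL, against 20.1, 24.6 and 18.2 FPKM in normal, and Rfc3, also of the clamp loader, was at 23.6, 35.2 and 34.6 FPKM in T-ALL, against 14.8, 24.3 and 15.0 FPKM in normal. Both were highest in Ly6cloF4/80lo in T-ALL, and for Rfc3 the lowest T-ALL library lay under the highest normal one (for Rfc5 log2 1.12, SE 0.15, adjusted p = 0.0138, for Rfc3 log2 0.77, SE 0.17, adjusted p = 0.0387). Rfc3 passed in 4 of 13 alternative settings. Pcna, Rpa2 (a subunit of the single-strand binding protein) and Dscc1 (of an alternative clamp loader) changed by 1.51, 1.19 and 1.30, and Rpa2 passed in 7 of 13 alternative settings. RefSeq names pseudogenes of Pcna and Tyms, so their values are uncertain.

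The enzymes that join Okazaki fragments and remove uracil all rose. Lig1, the ligase that seals lagging-strand fragments, was at 20.5, 30.8 and 40.3 FPKM in T-ALL, against 7.25, 9.49 and 10.3 FPKM in normal. The groups were clearly apart (log2 1.62, SE 0.15, adjusted p = 0.00832). Fen1, the nuclease that trims those fragments, was at 91.4, 96.1 and 126 FPKM in T-ALL, against 34.2, 38.3 and 29.9 FPKM in normal. It rose to a similar extent (log2 1.58, SE 0.18, adjusted p = 0.0104). Ung, the glycosylase that removes uracil from DNA, was at 14.5, 27.8 and 34.3 FPKM in T-ALL, against 6.72, 13.6 and 15.6 FPKM in normal. Its T-ALL Ly6chiF4/80lo value lay below the highest normal value, and the change was nearly equal in the 3 gates, at 1.00, 0.98 and 1.09 (log2 1.03, SE 0.13, adjusted p = 0.0116).

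Of 5 genes that supply deoxynucleotides 4 rose, and 1 of them had the largest change of all members. Rrm2, the S-phase subunit of ribonucleotide reductase, was at 141, 110.2 and 212 FPKM in T-ALL, against 27.2, 24.3 and 25.4 FPKM in normal. Normal libraries were alike, and T-ALL libraries were lowest in Ly6cloF4/80lo, unlike most members (log2 2.495, SE 0.20, adjusted p = 0.00832). Dut, which hydrolyses dUTP, was at 28.5, 57.7 and 63.8 FPKM in T-ALL, against 8.53, 15.7 and 10.1 FPKM in normal. It had the next largest change of this class (log2 1.995, SE 0.20, adjusted p = 0.00832). Tk1, the thymidine kinase of the salvage pathway, was at 43.4, 61.3 and 103 FPKM in T-ALL, against 10.8, 22.2 and 28.8 FPKM in normal. It climbed across the gates in both states (log2 1.72, SE 0.15, adjusted p = 0.00832). Tyms, thymidylate synthase, which makes dTMP de novo, was at 25.1, 38.8 and 39.2 FPKM in T-ALL, against 22.3, 27.9 and 35.6 FPKM in normal. Its groups overlapped and it did not pass (log2 0.25, SE 0.14, adjusted p = 0.245), nor did it in any of 13 alternative settings. Rrm1, the large subunit of ribonucleotide reductase, changed by 1.84. Rrm2 was 2.73, 1.27 and 1.87 times as abundant per length as Rrm1 in T-ALL and 1.52, 0.952 and 1.14 times in normal.

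Of 5 genes that copy chromatin or handle histone messages 4 rose. Chaf1a, the large subunit of the CAF-1 histone chaperone, was at 13.7, 24.3 and 29.4 FPKM in T-ALL, against 4.99, 7.81 and 4.84 FPKM in normal. Uhrf1, which reads hemimethylated DNA behind the fork, was at 27.7, 54.2 and 62.8 FPKM in T-ALL, against 9.63, 19.8 and 11.8 FPKM in normal. T-ALL values stood above all normal values for both (for Chaf1a log2 1.73, SE 0.23, adjusted p = 0.0135, for Uhrf1 log2 1.72, SE 0.21, adjusted p = 0.011). Hells, a chromatin remodeller needed for DNA methylation, was at 8.38, 11.6 and 9.88 FPKM in T-ALL, against 2.65, 6.51 and 2.81 FPKM in normal. It peaked in Ly6cloF4/80lo in both states (log2 1.21, SE 0.20, adjusted p = 0.0214), and it passed in 7 of 13 alternative settings. Slbp, which binds the stem-loop of histone messages, was at 78.1, 118 and 143 FPKM in T-ALL, against 64.1, 63.1 and 50.9 FPKM in normal. Its T-ALL libraries lay above the normal ones, but the gap widened from gate to gate, with within-gate log2 ratios of 0.28, 0.89 and 1.47, and it did not pass (log2 0.88, SE 0.24, adjusted p = 0.0583). Without either Ly6chiF4/80lo library Slbp passed (log2 1.18, adjusted p = 0.0342 without normal and 0.0343 without T-ALL), the state change then resting on the other 2 gates. Chaf1b, the partner of Chaf1a, changed by 1.67.

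Both E-type cyclins rose and E2f1 did not. Ccne1, which activates Cdk2 at the G1/S transition, was at 22, 38.4 and 61.7 FPKM in T-ALL, against 7.69, 7.38 and 7.06 FPKM in normal. The normal values were level over the gates, and the T-ALL values were spread nearly 3-fold (log2 2.199, SE 0.29, adjusted p = 0.0126). Ccne2 was at 11.04, 11.3 and 20.2 FPKM in T-ALL, against 3.15, 3.90 and 3.34 FPKM in normal. It was highest in T-ALL Ly6cloF4/80hi (log2 1.72, SE 0.22, adjusted p = 0.0118). E2f1, a transcription factor that activates replication genes, was at 12.7, 13.3 and 9.70 FPKM in T-ALL, against 16.7, 8.26 and 18.4 FPKM in normal. T-ALL values were below normal values in Ly6chiF4/80lo and Ly6cloF4/80hi and above in Ly6cloF4/80lo, so the groups overlapped (log2 -0.20, SE 0.28, adjusted p = 0.637).

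**Figure D2:**
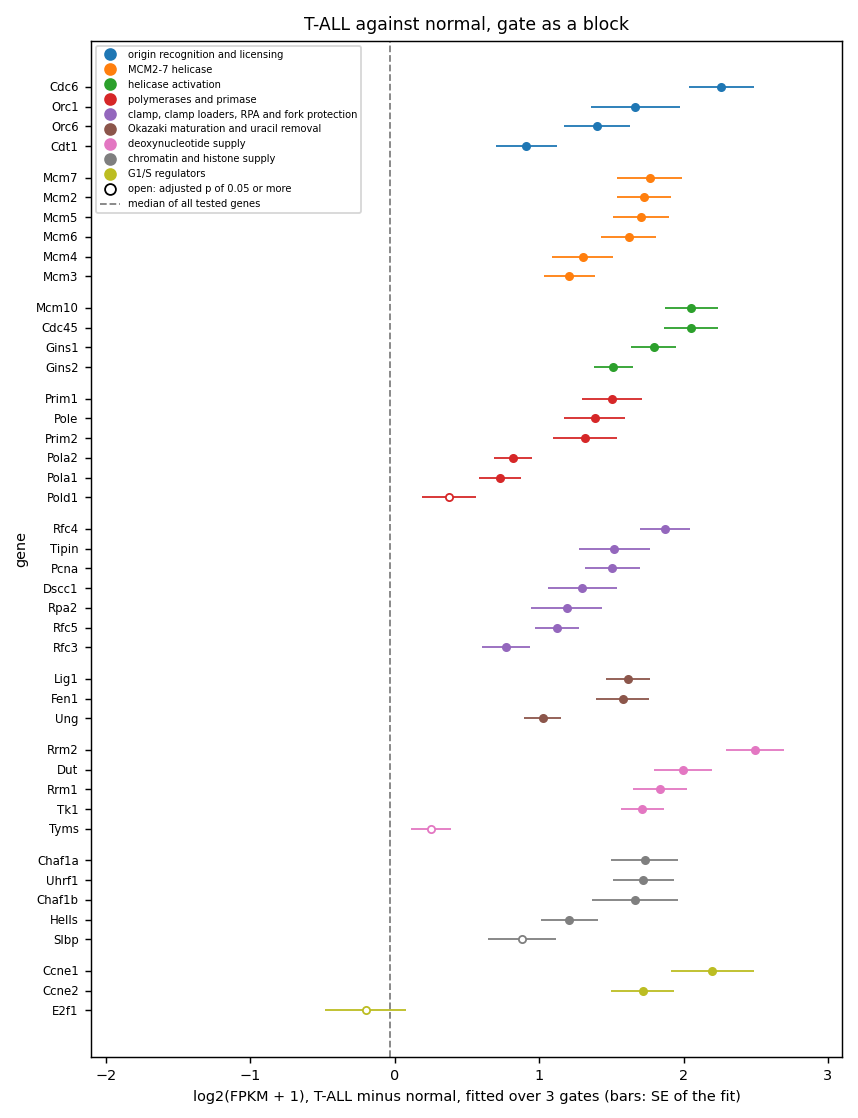
Fitted log2 change of each member, T-ALL minus normal, with the standard error of the limma fit, grouped and coloured by role and sorted within each role. Filled points passed an adjusted p of 0.05. All lie to the right of the dashed median of all tested genes except E2f1, and the 4 open points are Pold1, Tyms, Slbp and E2f1.

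The change was next read gate by gate, where 1 library a side leaves no error and no test. At least 2-fold higher in T-ALL were 27 of 43 members in Ly6chiF4/80lo (6.19% of all tested genes), 33 in Ly6cloF4/80lo (5.43%) and 38 in Ly6cloF4/80hi (9.58%). None was 2-fold lower in any gate, against 3.86%, 1.55% and 5.51% of all tested genes. The members' median log2 ratio was 1.30 in Ly6chiF4/80lo, 1.31 in Ly6cloF4/80lo and 1.94 in Ly6cloF4/80hi, against medians of -0.07 to 0.02 for all tested genes. In 38 of 43 members (88.4%) the largest of the 3 changes was in Ly6cloF4/80hi, which held for 40.4% of all tested genes. The exceptions were Gins1 and Tk1, with the largest change in Ly6chiF4/80lo, and Pola2, Tyms and E2f1, with the largest in Ly6cloF4/80lo. With 1 library per gate and state, no residual error is left to test whether the change differs between gates.

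**Figure D3:**
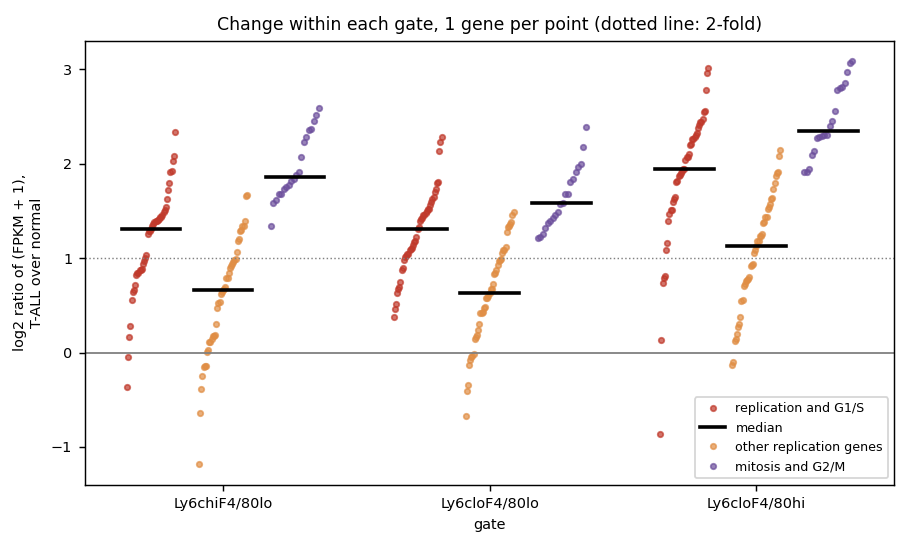
Log2 ratio of (FPKM + 1), T-ALL over normal, for each gene within each gate, with the list median as a bar. The members' median is 1.30, 1.31 and 1.94 across the gates, above that of 43 other replication genes (0.66, 0.63 and 1.12) and below that of 20 mitotic and G2/M genes (1.86, 1.58 and 2.35).

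The order of the gates was read within each state, with no test of a difference between the states. It was read on FPKM as deposited, and not after rescaling, which could change the order of genes with close values. The median-ratio factors, by which a library is divided, were 0.895, 1.08 and 1.01 in T-ALL and 0.938, 1.05 and 0.972 in normal. In T-ALL 37 of 43 members (86.0%) ran lowest in Ly6chiF4/80lo, then Ly6cloF4/80lo, and highest in Ly6cloF4/80hi, against 24.3% of tested genes. In normal 9 members (20.9%) did, against 18.9% of tested genes. There 29 members (67.4%) were highest in Ly6cloF4/80lo, against 44.1% of tested genes. Pold1, Rfc3, Rfc5, Rrm2, Hells and E2f1 broke the order in T-ALL. Between Ly6cloF4/80hi and Ly6chiF4/80lo the members' median difference was 0.88 in T-ALL and 0.13 in normal, against 0.17 and 0.06 for all tested genes. Between Ly6cloF4/80lo and Ly6chiF4/80lo it was 0.60 in T-ALL and 0.56 in normal, against 0.22 and 0.14 for all tested genes. Between Ly6cloF4/80hi and Ly6cloF4/80lo it was 0.24 in T-ALL and -0.41 in normal, against -0.07 and -0.13 for all tested genes.

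Few members passed between gates when both states were fitted together. Between Ly6cloF4/80hi and Ly6chiF4/80lo, with state as a block, Tk1 (log2 1.29, SE 0.19, adjusted p = 0.0102), Ung (1.15, SE 0.16, adjusted p = 0.00902) and Pola1 (1.04, SE 0.18, adjusted p = 0.0175) rose and none fell. Without normal Ly6cloF4/80hi 7 members passed, and without the block 0. Those 3 of 43 compare with 7.1% of all tested genes called higher and 5.68% called lower. Between Ly6cloF4/80lo and Ly6chiF4/80lo, Pola1 (0.93, adjusted p = 0.0435) and Ung (0.91, adjusted p = 0.0361) rose and none fell, beside 2.68% called higher and 2.05% called lower. Both calls were lost after median-ratio rescaling, after quantile normalization and with no filter, while 4 members passed without normal Ly6cloF4/80hi and 6 without T-ALL Ly6cloF4/80hi. Between Ly6cloF4/80hi and Ly6cloF4/80lo, limma called 0 members, beside 2.66% of genes higher and 0.904% lower. There 2 of 43 members had an unadjusted p under 0.05, beside 2209 of 11616 tested genes. Rescaling moved the median of all genes between gates: Ly6cloF4/80lo against Ly6chiF4/80lo had a median log2 of 0.19 as deposited, 0.01 after median-ratio rescaling and 0.04 after quantile normalization. Beside these, the members' medians were 0.59, 0.38 and 0.46. Of the genes called, 56.6%, 35.8% and 40.2% were higher in Ly6cloF4/80lo under these scalings, and for Ly6cloF4/80hi against Ly6chiF4/80lo the shares higher were 55.6%, 45.4% and 42.6%.

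Other genes of the same pathways were read from lists that share no gene with the set. Of 43 other replication genes 25 rose in T-ALL and 0 fell, with a median log2 of 0.80. Beside the counts in these lists, 8.2% of all tested genes were called higher and 3.94% lower. Clspn, a checkpoint adaptor at forks, was at 4.82, 6.93 and 8.17 FPKM in T-ALL, against 0.83, 1.89 and 1.07 FPKM in normal, and rose the most (log2 1.76, SE 0.20, adjusted p = 0.0102). Asf1b, a histone chaperone, and Gmnn, the inhibitor of Cdt1, rose by 1.59 and 1.49. Of 21 other G1/S regulators 8 rose and 0 fell. Cks1b, a small Cdk-binding protein, was at 146, 129.9 and 145 FPKM in T-ALL, against 33.4, 46.6 and 31.4 FPKM in normal (log2 1.91, SE 0.18, adjusted p = 0.00832). E2f8, an atypical E2F repressor, Mybl2, a cell-cycle transcription factor, and Tfdp1, the dimer partner of E2F proteins, rose by 1.89, 1.49 and 1.45. Of 7 tested CDK inhibitors and pocket proteins limma called 0, and 1 had an unadjusted p under 0.05. That gene, chosen here after its values were seen, was Cdkn1a, the p53-induced inhibitor of Cdk2, at 8.03, 11.2 and 5.09 FPKM in T-ALL, against 28.4, 15.7 and 7.88 FPKM in normal (log2 -0.90, SE 0.27, adjusted p = 0.0716).

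The mitotic and G2/M genes moved with the replication set. All 20 rose, with a median log2 of 1.91, and in 20 of 20 the lowest T-ALL library stood above the highest normal one. Among all tested genes 8.2% were called higher, and 13.8% had the states apart in this way. Ccnb1, a mitotic cyclin, Birc5, a subunit of the chromosomal passenger complex, Ccna2, which binds Cdk2 and Cdk1, and Cdk1, the mitotic kinase, rose by 2.61, 2.49, 2.45 and 2.45. Between Ly6cloF4/80hi and Ly6chiF4/80lo their median difference was 0.32 in T-ALL and -0.17 in normal, beside 0.88 and 0.13 for the replication set.

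**Figure D4:**
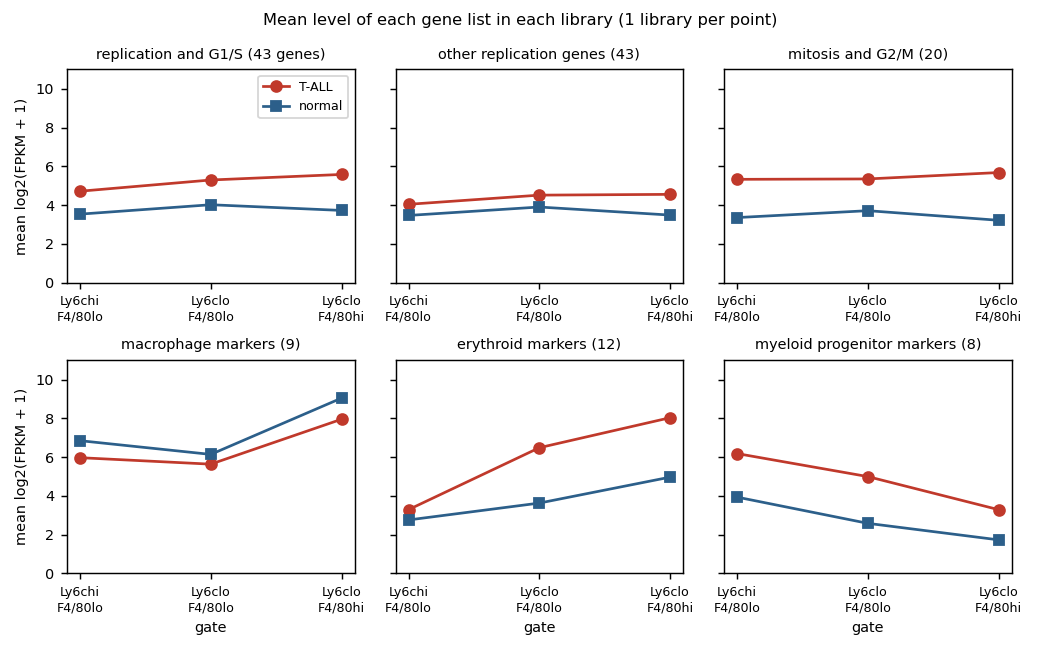
Mean log2(FPKM + 1) of each gene list in each of the 6 libraries, by gate, T-ALL in red and normal in blue. The replication set lies higher in T-ALL in each gate (4.71, 5.29 and 5.58, against 3.53, 4.02 and 3.72 in normal), macrophage markers lie lower in T-ALL, erythroid markers separate the states in the Ly6clo gates and myeloid progenitor markers separate them in each gate.

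Many markers of dividing precursors were also higher in T-ALL, and their part in the result was not tested. Over the gates in T-ALL, 11 of 12 erythroid markers ran from lowest in Ly6chiF4/80lo, through Ly6cloF4/80lo, to highest in Ly6cloF4/80hi. So did 37 of 43 members, 24.3% of tested genes and 0 of 8 myeloid progenitor markers. Between Ly6cloF4/80hi and Ly6chiF4/80lo in T-ALL, the median log2 difference was -4.20 for myeloid progenitor markers, 4.91 for erythroid markers and 0.88 for the members. Of 12 erythroid markers 6 rose and 0 fell, and their summed level was 723, 5066 and 31869 FPKM in T-ALL and 717, 535 and 4100 FPKM in normal. Of 8 myeloid progenitor markers 7 rose and 0 fell, with sums of 1753, 348 and 93.8 FPKM in T-ALL and 245, 78.4 and 29.3 FPKM in normal. Within gates, 2, 12 and 11 of the 12 erythroid markers were at least 2-fold higher in T-ALL, with median log2 ratios of 0.39, 2.87 and 3.21. The shares over all tested genes were 6.19%, 5.43% and 9.58%. The erythroid sums are carried by the globins Hba-a1 and Hbb-bs. In Ly6chiF4/80lo, where these sums were nearly equal, the log2 ratios of the 12 markers ran from -0.21 to 1.54. Car1 and Klf1, chosen here after their values were seen, were among those that were higher. Car1, a carbonic anhydrase of red cells, was at 20.6 FPKM in T-ALL and 6.41 FPKM in normal. Klf1, an erythroid transcription factor, was at 3.86 FPKM in T-ALL and 1.51 FPKM in normal. Of the myeloid progenitor markers 7 of 8 were at least 2-fold higher in T-ALL in each gate, with median log2 ratios of 2.72, 2.76 and 1.53. Of 7 plasma cell markers 6 rose and 0 fell, with sums of 14684, 1723 and 1678 FPKM in T-ALL and 5866, 734 and 463 FPKM in normal. Beside these marker counts, 8.2% of all tested genes were called higher and 3.94% lower.

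No tested T cell, immature T cell, B cell or macrophage marker passed the fit over the 3 gates in the direction of T-ALL, but some were higher in single gates. In Ly6cloF4/80hi, where the members' median ratio was highest, 3 of 10 T cell markers were at least 2-fold higher and 0 lower, with a median log2 ratio of 0.55, against -0.67 in Ly6chiF4/80lo and -0.48 in Ly6cloF4/80lo. Among all tested genes 9.58% were at least 2-fold higher in Ly6cloF4/80hi and 5.51% lower. Dntt, the terminal transferase of immature lymphocytes, singled out after its values were seen, was at 7.31, 2.70 and 16.5 FPKM in T-ALL, against 4.43, 0.49 and 0.38 FPKM in normal, with within-gate log2 ratios of 0.61, 1.31 and 3.67 (log2 1.86, SE 0.56, adjusted p = 0.0772). These values were not tested for their part in the members' change. The labels used here name no gate on GFP, which marks the transplanted leukemia cells. Of 10 tested T cell markers 0 rose and 1 fell, and the sum over 11 markers was 92.3, 98.5 and 126.5 FPKM in T-ALL and 157, 162 and 76.9 FPKM in normal. The 5 immature T cell markers summed to 19.2, 48.9 and 60.5 FPKM in T-ALL and 17.2, 86.2 and 27.6 FPKM in normal, and of 3 tested limma called 0, with 1 at an unadjusted p under 0.05. Of 5 B cell markers limma called 0, with 1 at an unadjusted p under 0.05. Of 9 macrophage markers 4 fell and 0 rose, with sums of 6596, 2323 and 4568 FPKM in T-ALL and 13396, 2896 and 8847 FPKM in normal. Of 5 tested megakaryocyte and platelet markers 2 rose and 0 fell, and the sum over 6 was 35.4, 52.4 and 57.0 FPKM in T-ALL and 22.5, 17.3 and 18 FPKM in normal. Beside the calls in these lists, 8.2% of all tested genes were called higher and 3.94% lower. No marker of any list was at 0 in any library.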

How the data were processed

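RNA from 6 sorted spleen fractions was extracted with RNeasy columns and sequenced, per the labels' protocols. The authors deposited FPKM per Entrez gene, 1 file per library, and the submitters' processing notes name Bowtie2 2.2.5 and RSEM. Which build, annotation, RSEM version and strand setting they used was not given in the sources used here. A gene missing from a file was set to 0. Symbols were found for 16017 of 16058 identifiers.

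FPKM are not counts, so the tests used limma 3.58.1 (R 4.3.3, statmod 1.5.0) on log2(FPKM + 1), for the 11616 genes of at least 1 FPKM in at least 2 libraries. The model held gate and state, with a trended and robust prior, 2 residual degrees of freedom and two-sided Benjamini-Hochberg adjusted p-values over all tested genes. An exact permutation test of 3 against 3 libraries cannot go below 0.1. Depth was recovered from the spacing of FPKM values among 321 to 360 genes per library. On 3 simulated libraries it was off by at most 0.235%. Those were drawn with the same transcript lengths that the recovery used, so a mismatch with the authors' lengths is not covered. The FPKM summed to 494558 to 583298 per library.

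The 43 members, their roles and the other lists were chosen with earlier results of these data known. Within each role, values are given for the 2 members with the largest and the 2 with the smallest fitted change, with every member that did not pass; of other lists, up to 4 called genes with the largest change. A gene that this rule names is not reported here. Alternatives were another pseudocount (0.1), 2 other filters, 2 rescalings, no trended prior, no block, a 2-fold limit and each library left out. Tables were made in pandas 2.3.3 and numpy 2.4.6, figures in matplotlib 3.10.9, all under Python 3.11.15. Promoter windows came from RefSeq (GRCm38.p6).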

Additional observations from a re-analysis of the deposited data

Results flagged for a closer look

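The ratios of Pold1 and E2f1 did not have the same sign in every gate, with 1 library a side and no test of the difference between gates. The log2 ratio of (FPKM + 1) of Pold1, T-ALL over normal, was -0.046 in Ly6chiF4/80lo, 0.38 in Ly6cloF4/80lo and 0.81 in Ly6cloF4/80hi; in Ly6chiF4/80lo its levels, 22.4 FPKM in T-ALL and 23.2 FPKM in normal, differed by less than the counting error of about 5.8% in its lowest library. That of E2f1 was -0.37 in Ly6chiF4/80lo, 0.63 in Ly6cloF4/80lo and -0.86 in Ly6cloF4/80hi. The remaining 41 members were higher in T-ALL in every gate, which held for 27.9% of all tested genes.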

How the results depend on the processing

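The 39 members higher in T-ALL became 11 with no block and 25 to 36 with each library left out in turn, lowest without normal Ly6cloF4/80hi; under the other alternatives they stayed at 27 or more, and 0 members were lower throughout. Their median log2 lay between 1.26 and 1.68. Between Ly6cloF4/80hi and Ly6chiF4/80lo, 0 members passed with no block and 2 to 7 with a library left out. Between Ly6cloF4/80lo and Ly6chiF4/80lo, 0 passed with no filter, median-ratio rescaling, quantile normalization, no block or the 2-fold limit, 1 passed without the trended prior, and 0 to 6 with a library left out. E2f1 ranged from -0.61 without a Ly6cloF4/80lo library to 0.13 without either Ly6cloF4/80hi library; a library left out leaves the estimate to the other 2 gates. Over the single members and these alternatives, 463 results kept their call, 90 lost it, 2 gained it and 2 turned sign, and Cdt1, Rfc3, Pola1, Orc1, Hells and Rpa2 were the called members that passed in fewest alternatives; the cause was not tested. The gate block pairs T-ALL with normal within each gate, and 28 of the 39 calls were lost without it; the labels give no replicate numbers to pair on. At the median annotated coding length, Pole, Gins1, Dscc1, Orc1 and Tipin held the fewest fragments, about 12 to 40 in their lowest library. That length was 1523 bases for Pole and 400 for Tipin. A longer transcript would mean more fragments at the same FPKM, so this ranking depends on the length used.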

Other observations

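Ratios between partner genes differed between the states for some pairs and were close for others. Per length, Gins4, a GINS subunit outside the set, was 3.21, 3.17 and 3.15 times as abundant as Gins1 in T-ALL and 14.2, 9.86 and 6.51 times in normal, in the order Ly6chiF4/80lo, Ly6cloF4/80lo, Ly6cloF4/80hi. Ccne1 was 1.99, 3.40 and 3.06 times as abundant as Ccne2 in T-ALL and 2.44, 1.89 and 2.11 times in normal. Prim1 over its partner Prim2 was 1.81, 1.70 and 1.70 in T-ALL and 1.32, 1.78 and 1.60 in normal, and Chaf1a over Chaf1b was 0.984, 0.729 and 0.743 in T-ALL and 0.758, 0.68 and 0.823 in normal. On FPKM as deposited, 24 of 43 other replication genes ran from lowest in Ly6chiF4/80lo to highest in Ly6cloF4/80hi in T-ALL. In normal 3 did. The shares over all tested genes were 24.3% in T-ALL and 18.9% in normal. With 1 library a group, no error can be given for the partner ratios. At the median annotated coding length, Gins1 held about 17, 32 and 41 fragments in the normal libraries, in the same gate order. Its counting error was about 24.4% in the lowest of them.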
